A study of Mus musculus with 6 samples.

Results

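The nuclear genes for the subunits of the oxidative phosphorylation complexes were compared between bone marrow-derived macrophages of Cd28 KO and wild-type (WT) mice. They were taken by gene symbol: Nduf followed by a, b, c, s or v and a number for complex I, Sdha to Sdhd for complex II, Uqcr and Cyc1 for complex III, Cycs for cytochrome c, Cox4 to Cox8 for complex IV and Atp5 for complex V. Assembly factors, the ATPase inhibitor Atp5if1 and pseudogenes were left out. In RefSeq for GRCm38.p6, 89 genes meet this rule, and 83 of them were among the 14574 genes listed in at least 1 library. Testing required an average level of 1 FPKM or more, and 80 of the 83 reached it: 36 of 37 in complex I, 4 of 4 in complex II, 9 of 9 in complex III, cytochrome c, 13 of 15 in complex IV and 17 of 17 in complex V. FPKM divides a gene's fragments by its transcript length and by the mapped fragments of the library. The symbol rule does not take in Ndufab1, and it places Ndufa4 and its paralog Ndufa4l2 in complex I, although NDUFA4 is now known as a complex IV subunit.

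Oxidative phosphorylation takes place in the inner mitochondrial membrane. Complex I (NADH dehydrogenase) and complex II (succinate dehydrogenase) pass electrons to ubiquinone, complex III passes them on to cytochrome c, and complex IV (cytochrome c oxidase) passes them to oxygen. Complexes I, III and IV pump protons, and complex V (ATP synthase) uses the gradient to make ATP. In macrophages the balance between this pathway and glycolysis is known to shift with activation, and complex II is also known for the succinate it consumes.

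Each group had 3 libraries of total RNA. One group is labelled as from Cd28 KO mice, Cd28 being a costimulatory receptor best known from T cells, and the other as from C57BL/6J (WT) mice. Marrow came from the femurs of mice aged 6 to 10 weeks. Cells of both groups grew for 7 days in DMEM with 10% fetal calf serum, 2-ME and human M-CSF at 25 ng/ml, the cytokine being added every 2 days, and received no other treatment. The sources used here do not give the sex of the mice, the targeted part of Cd28 or the read depth. No label says that the numbered samples were separate animals or cultures, so the p-values rest on the spread among these samples, which may be technical in part. In bulk RNA, fewer cells of a type and less RNA per cell cannot be told apart.

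The libraries listed 12768 to 13327 genes, and their FPKM summed to 510937 to 576313. Cd28 itself was listed in all 6 libraries, at 24.2 to 26.9 FPKM in Cd28 KO and 30.1 to 51.1 FPKM in WT, and was not called by limma (adjusted p = 0.9995, and 0.183 with the replicate number as a block). The level of the targeted gene was thus lower in each library labelled Cd28 KO but not lost, and a value per gene cannot tell its exons apart, so it does not settle the label on which every direction here rests. In both groups the library numbered 3 lay away from the others. The median absolute log2 difference over tested genes was 0.14 between Cd28 KO replicates 1 and 2 and 0.09 between WT replicates 1 and 2, against 0.26 to 0.30 between replicate 3 and either of the others of its group. The Y-linked genes Ddx3y, Eif2s3y, Kdm5d and Uty were listed in the replicate 3 library of each group and in no other, so these libraries hold cells of other animals than replicates 1 and 2. All 8 macrophage markers were listed (Adgre1, Csf1r, Cd68, Itgam, Mertk, Fcgr1, Cd14 and Lyz2), with a summed level of 14780 to 16870 FPKM in Cd28 KO and 14100 to 14780 FPKM in WT. The 7 other marker lists stayed low: T cell markers summed to 3.88 to 6.91 FPKM in Cd28 KO and 4.4 to 7.2 FPKM in WT, with Cd3d and Trac at 0, and neutrophil markers to 3.7 to 8.31 FPKM and 2.15 to 6.18 FPKM. B cell, dendritic, erythroid, mast cell and stromal markers reached 2.79 FPKM at most.

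No subunit passed the test in either direction. Without a block, limma called 2 of 10172 genes (0.0197%), Ctse and Snx8, named here after their values were seen, and 0 of the 80 subunits. With the replicate block it called 18 genes (0.177%) and again 0 subunits. At an unadjusted limma p below 0.05, 4 subunits stood higher in Cd28 KO and 0 lower, where 1.74% of tested genes were higher and 0.747% lower. With the block 19 subunits stood higher and 0 lower at that threshold, where 5.08% and 2.81% of tested genes did. Of the 623 other tested genes with transcripts of up to 1000 nt, 8.03% stood higher without the block and 20.39% with it. In that set 2 and 7 genes stood lower. Of the 51 subunits of that length, 7.84% and 29.41% stood higher and 0 lower. With limma's library weights, 9 subunits passed an adjusted p below 0.05 (Ndufa7, Ndufb2, Ndufb9, Ndufb11, Sdhd, Uqcr10, Atp5j and Atp5md higher, Atp5g1 lower), where 9.12% of all tested genes passed.

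Small differences in 1 direction were common among the subunits. The log2 difference, Cd28 KO minus WT on log2(FPKM + 1), was above 0 for 69 of 80 subunits (86.25%), with a median of 0.17. Of all tested genes 49.13% lay above 0, with a median of -0.0031. Every Cd28 KO library exceeded every WT library for 8 of the 80 subunits (10.0%), where 3.84% of tested genes did, and the reverse held for 0, where 2.87% did. These 8 were Ndufa11, Ndufa13, Ndufb9, Ndufb11, Ndufs3, Ndufs4, Sdhd and Uqcrq, of which 6 belong to complex I. Rescaled to an equal sum per library, 10 subunits were of this kind higher and 0 lower, where 2.35% and 3.92% of tested genes were. Transcript length moved with the share above 0, as given with the length classes.

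The levels of the complexes kept the same broad order in all 6 libraries. The median subunit of complex IV had a level of 225 ± 27.1 FPKM in Cd28 KO and 199.9 ± 9.10 FPKM in WT (SD, n = 3), and that of complex V 179 ± 20.9 and 153 ± 14.99 FPKM. Complex II followed at 97.6 ± 3.34 and 94.4 ± 4.02 FPKM, and complex III at 92.0 ± 5.96 and 92.4 ± 4.96 FPKM. These last complexes did not differ beyond their spread, and their order changed between libraries. For complex I the level was 80.8 ± 8.46 FPKM in Cd28 KO and 65.3 ± 7.09 FPKM in WT. Cycs, the gene of somatic cytochrome c and the mobile carrier between complexes III and IV, was lower than the median of each complex in every library. The median subunit stood at 104.9 FPKM over the 6 libraries, against 12.05 FPKM for the median tested gene.

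**Figure D1:**
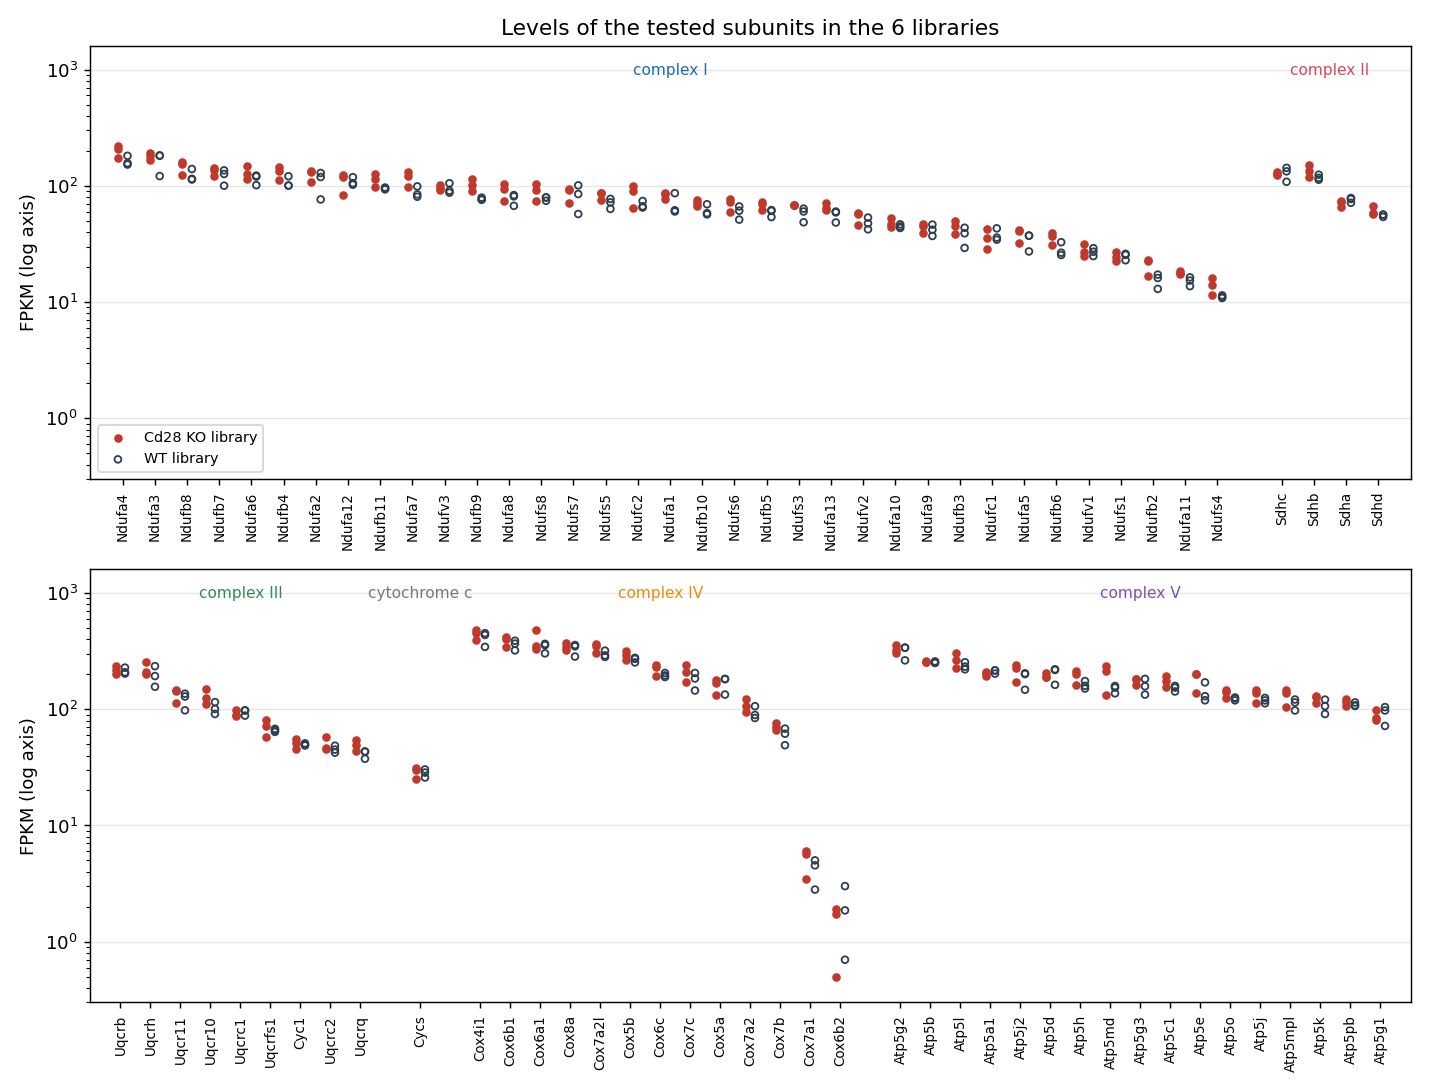
FPKM of the tested subunits (log axis; 1 not shown), grouped by complex, with filled points for the 3 Cd28 KO libraries and open points for the 3 WT libraries. Levels run from Cox6b2 at a mean of 1.62 FPKM to Cox4i1 at 427 FPKM, and the points of the 2 groups lie close together beside that range.

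Complex I had the highest median. Its 36 tested subunits had a median log2 difference of 0.23, and 33 were above 0. The 7 core subunits, which carry the flavin and the iron-sulfur clusters, had a median of 0.11, and the 29 accessory subunits 0.23, with 27 above 0. Their median transcripts were 1312 nt and 683 nt. Other tested genes of 1000 to 1500 nt had a median difference of 0.09, and those of 500 to 750 nt 0.17. The 10 Ndufb subunits, which belong to the membrane arm, were all above 0, at a median of 0.26. They were also all above 0 when the libraries were rescaled to equal sums, quantile normalized or centred on their medians, and in replicates 1 and 2 alone.

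Of the 3 core subunits of the NADH-oxidizing module, Ndufs1 and Ndufv1 were near 0. Ndufv2 was at 0.17, with 58.1, 46.2 and 57.5 FPKM in Cd28 KO and 47.6, 53.4 and 42.3 FPKM in WT. Ndufs1, the large iron-sulfur subunit, held 27.1, 24.6 and 22.6 FPKM in Cd28 KO and 25.5, 26.03 and 22.9 FPKM in WT, so that the groups overlapped throughout. Ndufv1, the flavin-binding subunit that takes electrons from NADH, held 24.7, 27.0 and 31.4 FPKM against 29.1, 27.1 and 24.9 FPKM, with the highest value in Cd28 KO replicate 3 and the lowest in Cd28 KO replicate 1. The module's median log2 difference was 0.03 over 3 subunits, and that of the 4 subunits of the quinone module 0.15. The median transcripts were 1661 nt and 963.8 nt.

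Ndufs3 (Entrez 68349, chr2:90894627-90904721), another subunit of the quinone module, was the core subunit without overlap. It held 68.5, 68.1 and 68.1 FPKM in Cd28 KO and 63.7, 60.2 and 48.7 FPKM in WT. The Cd28 KO libraries lay within 1 FPKM of each other, and WT replicate 3 lay furthest below them. Its log2 difference was 0.25 ± 0.12 (SE; limma adjusted p = 0.9995).

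Ndufb9 (Entrez 66218, chr15:58933801-58939516), an accessory subunit of the membrane arm, had the smallest p of the 80. It held 114, 89.6 and 102 FPKM in Cd28 KO and 79.2, 76.0 and 76.6 FPKM in WT. The groups did not overlap, and the WT libraries lay close together while Cd28 KO replicate 2 lay nearest to them. The mean was 102 ± 12.0 FPKM in Cd28 KO and 77.3 ± 1.72 FPKM in WT (SD, n = 3), a ratio of 1.32. The log2 difference was 0.39 ± 0.11 (SE), at an unadjusted limma p of 0.00969 and an adjusted p of 0.9995, or 0.288 with the replicate block.

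Ndufa7 (Entrez 66416, chr17:33824572-33838316), an accessory subunit, had the largest log2(FPKM + 1) difference of all subunits, closely followed by Ndufb2. It held 121, 98.8 and 133 FPKM in Cd28 KO and 99.0, 80.7 and 84.5 FPKM in WT. Cd28 KO replicate 2 lay just below WT replicate 1, and no other pair of libraries overlapped. The ratio of means was 1.33 and the log2 difference 0.41 ± 0.14 (SE; limma adjusted p = 0.9995, or 0.307 with the block). Ndufb2, a small accessory subunit of the membrane arm, held 22.4, 16.9 and 23.2 FPKM against 17.3, 16.1 and 13 FPKM, with the same overlap of Cd28 KO replicate 2 and WT replicate 1. Its log2 difference was 0.40 ± 0.17 (SE) and its ratio of means 1.35, above that of Ndufa7, and it also exceeded Ndufa7 after rescaling to equal sums (0.353 against 0.348). Ndufb6, also of the membrane arm and named here after its values were seen, was the remaining subunit with an unadjusted limma p below 0.05, at 39.0, 31.3 and 37.4 FPKM against 32.8, 26.6 and 25.4 FPKM.

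Further accessory subunits had no overlap between groups. Ndufb11 (chrX:20615326-20617619) held 115, 97.2 and 126 FPKM in Cd28 KO and 95.2, 93.4 and 96.8 FPKM in WT, so that Cd28 KO replicate 2 cleared the highest WT library by under 1 FPKM. Ndufa11 held 18.6, 17.5 and 17.7 FPKM against 15.3, 16.3 and 13.7 FPKM. Ndufa13, also known as Grim19, held 64.4, 61.5 and 71.6 FPKM against 60.1, 59.2 and 48.4 FPKM. In both, WT replicate 3 was the lowest library. Ndufs4, an accessory subunit whose loss is a well-known mouse model of Leigh syndrome and the lowest tested member of complex I, held 13.9, 11.6 and 16.1 FPKM against 11.4, 11.1 and 10.9 FPKM. Their log2 differences lay between 0.23 and 0.285.

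Some complex I subunits had differences at or below 0. Ndufc1, the shortest transcript of the set at 315 nt, held 35.6, 28.5 and 42.5 FPKM in Cd28 KO and 34.5, 43.1 and 35.9 FPKM in WT, a log2 difference of -0.10 ± 0.17 (SE). Ndufa12 held 118, 83.6 and 125 FPKM against 119, 105 and 102 FPKM, with Cd28 KO replicate 2 the lowest of the 6 and replicate 3 the highest. Without Cd28 KO replicate 2 both were above 0, at 0.05 for Ndufc1 and 0.16 for Ndufa12.

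Complex II divided by subunit, 2 above 0 and 2 below, at a median of 0.06. Sdha, the flavoprotein that oxidizes succinate, held 72.4, 73.8 and 65.3 FPKM in Cd28 KO and 78.7, 77.1 and 71.6 FPKM in WT. It was lower in Cd28 KO within each replicate number, although the groups overlapped, and its log2 difference was -0.10 ± 0.10 (SE). Sdhb, the iron-sulfur subunit, held 135, 118 and 151 FPKM against 117, 113 and 125 FPKM, and was higher in Cd28 KO within each replicate number, at 0.18 ± 0.11. Among the membrane anchors, Sdhc held 131, 127 and 125 FPKM against 143, 133 and 109 FPKM, with a wider spread in WT and a log2 difference of -0.0002. Sdhd held 67.4, 58.4 and 57.1 FPKM against 54.1, 56.7 and 56.4 FPKM, without overlap but with less than 1 FPKM between Cd28 KO replicate 3 and WT replicate 2. None of the 4 passed the limma test.

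In complex III, 8 of 9 subunits were above 0, at a median of 0.13. The catalytic subunits were near 0: Cyc1, cytochrome c1, held 51.1, 45.8 and 55.2 FPKM in Cd28 KO and 48.8, 49.4 and 50.9 FPKM in WT, and the iron-sulfur protein Uqcrfs1 72.1, 57.9 and 80.1 FPKM against 67.8, 65.9 and 63.9 FPKM. In both, the Cd28 KO libraries spanned the WT range on either side. Uqcrc1, a core protein of the matrix side, held 87.3, 90 and 98.7 FPKM against 97.8, 97.6 and 88.2 FPKM and was the member below 0, at -0.04. The small subunit Uqcr10 (Entrez 66152, chr11:4701968-4704344) had the largest difference of the complex with all 6 libraries. It held 150.1, 112 and 124 FPKM against 115, 91.1 and 101 FPKM, with 1 overlapping pair, Cd28 KO replicate 2 and WT replicate 1. Its log2 difference was 0.32 ± 0.14 (SE; limma adjusted p = 0.9995, or 0.369 with the block). Uqcrq, another small subunit and the lowest of the complex, held 49.6, 43.8 and 54.7 FPKM against 43.4, 43.1 and 37.5 FPKM, without overlap. Uqcrb, the highest of the complex, held 237, 200.3 and 219 FPKM against 208, 228 and 203 FPKM, with the lowest library in Cd28 KO. Cycs, between complexes III and IV, held 31.0, 25.3 and 30.0 FPKM against 28.5, 30.3 and 25.9 FPKM, with a log2 difference of 0.02 ± 0.12 (SE).

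In complex IV, 11 of 13 tested subunits were above 0, at a median of 0.16, and none was without overlap. Cox4i1, the ubiquitous form of subunit 4 and the highest of all subunits, held 480.4, 394 and 455 FPKM in Cd28 KO and 451, 436 and 344 FPKM in WT. Cox7b held 70.6, 65.9 and 76.2 FPKM against 61.6, 49.0 and 68.1 FPKM, a log2 difference of 0.26 ± 0.14 (SE), with Cd28 KO replicate 2 below WT replicate 3. This was the largest on log2(FPKM + 1) of the complex as the symbol rule sets it. Cox7a1 had the larger ratio of means (1.23 against 1.19) and the larger difference after rescaling to equal sums (0.205 against 0.199). Ndufa4, which the rule places in complex I, was at 0.29 on log2(FPKM + 1). Cox5a held 169.8, 132 and 179 FPKM against 181, 183 and 134 FPKM, at -0.05 ± 0.17 (SE). Its lowest libraries were Cd28 KO replicate 2 and WT replicate 3. Cox7a2l, known for joining complexes III and IV into supercomplexes, held 368, 305 and 349 FPKM against 319, 291 and 282 FPKM.

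The ubiquitous isoforms of complex IV made up nearly all of each pair. The testis-enriched Cox6b2 held 1.91, 1.74 and 0.5 FPKM in Cd28 KO and 1.86, 3.01 and 0.7 FPKM in WT, with replicate 3 the lowest of each group, and was 0.365% ± 0.214 and 0.503% ± 0.299 of the sum with Cox6b1 (SD, n = 3). The muscle form Cox6a2 was 0.271% ± 0.0904 and 0.162% ± 0.114 of the sum with Cox6a1. Cox7a1, another muscle form, held 6.01, 3.44 and 5.69 FPKM against 5.01, 2.81 and 4.54 FPKM, a share of 4.43% ± 0.892 and 4.19% ± 0.846 of the sum with Cox7a2. Exact two-sided permutation tests of these shares gave p = 0.5 for Cox6b2, 0.2 for Cox6a2 and 0.8 for Cox7a1, where 3 against 3 libraries cannot go below 0.1. They were among 8 shares tested in this way, with those of Cox4i2, Ndufa4l2 and the 3 c-ring genes, and the smallest value adjusted by Benjamini-Hochberg over the 8 was 0.8. Below the filter, Cox6a2 held 0.97, 1.19 and 0.85 FPKM in Cd28 KO and 1.01, 0.17 and 0.49 FPKM in WT. The hypoxia-associated Cox4i2 was listed in WT replicate 3 alone, at 0.15 FPKM, and Ndufa4l2 in replicate 1 of each group, at 0.22 and 0.11 FPKM. Cox7b2, Cox8b, Cox8c, Ndufb1, Ndufb4b and Ndufb4c were listed in none of the 6 files.

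Complex V had 14 of 17 subunits above 0, at a median of 0.16, and none without overlap. The 5 subunits of the catalytic F1 head, with a median transcript of 1450 nt, had a median difference of 0.01. This difference was -0.05 after rescaling to equal sums and -0.02 after quantile normalization. Atp5a1, the alpha subunit, held 205, 211 and 194 FPKM in Cd28 KO and 216, 216 and 203 FPKM in WT, and was lower in Cd28 KO within each replicate number. Atp5b, the catalytic beta subunit, varied least, with 253, 261 and 253 FPKM against 258, 252 and 250.2 FPKM. Atp5e, the small epsilon subunit, held 202, 137 and 201 FPKM against 170.2, 119 and 129.5 FPKM with Cd28 KO replicate 2 below WT replicate 1 and above the other WT libraries. Its log2 difference of 0.36 ± 0.20 (SE) was the largest of the complex on log2(FPKM + 1), while Atp5md had the larger ratio of means (1.30 against 1.29). The peripheral stalk, which holds the head still, had a median of 0.16 over 4 subunits, at a median transcript of 806.8 nt. The 5 accessory subunits of the membrane part, with a median transcript of 371 nt, had a median difference of 0.21 and were all above 0. Of these, Atp5md held 215, 133 and 237 FPKM against 154, 137 and 158 FPKM, with Cd28 KO replicate 2 below every WT library and the others above them all.

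The c ring, which turns as protons pass, is encoded by Atp5g1, Atp5g2 and Atp5g3, whose mature proteins are identical. The sum of the 3 was 591 ± 45.9 FPKM in Cd28 KO and 563 ± 82.6 FPKM in WT (SD, n = 3). Atp5g2 made up 55.6% ± 0.846 and 55.8% ± 1.501 of it, Atp5g3 29.6% ± 1.34 and 28.1% ± 1.38, and Atp5g1 14.8% ± 0.498 and 16.2% ± 0.729. The exact two-sided permutation p was 0.9, 0.3 and 0.2 in that order. Atp5g1, the lowest of complex V, held 84.7, 80.8 and 97.8 FPKM against 104, 97.6 and 71.9 FPKM: below WT in replicates 1 and 2 and above it in replicate 3. Because RSEM divides reads between similar transcripts by estimation, the division among these genes is uncertain.

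**Figure D2:**
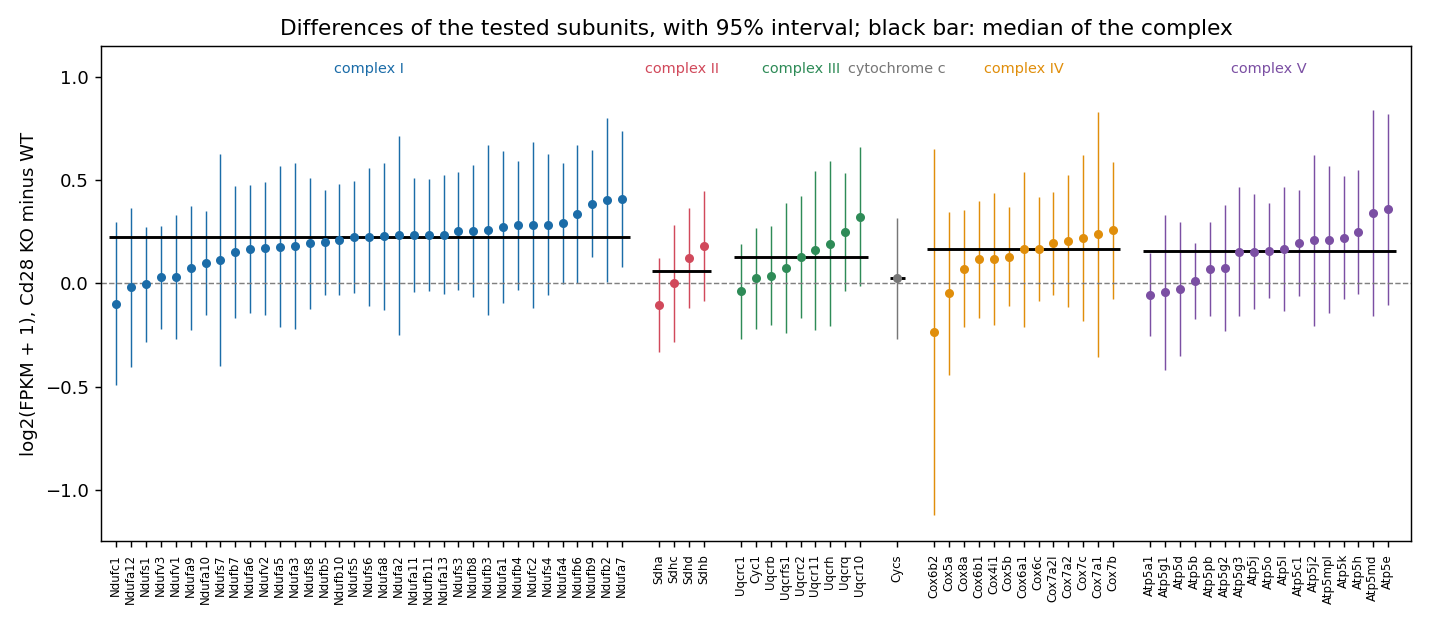
Log2 difference of the tested subunits (1 not shown), Cd28 KO minus WT on log2(FPKM + 1), with 95% intervals from limma, ordered within each complex; the black bar is the median of the complex. Most points lie above 0, from -0.24 for Cox6b2 to 0.41 for Ndufa7, and most intervals include 0.

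The difference was not even across replicate numbers. Within replicate 3 the median log2 difference over the 80 subunits was 0.39, with 76 above 0, and within replicate 1 it was 0.12, with 66 above 0. Within replicate 2 it was -0.03, with 35 above 0. Over all tested genes the medians were -0.05 in replicate 3, 0.01 in replicate 1 and 0.04 in replicate 2. In complex I the replicate medians were 0.14, 0.01 and 0.42 for replicates 1, 2 and 3, in complex III 0.19, -0.11 and 0.30, in complex IV 0.09, -0.09 and 0.39, and in complex V 0.11, -0.02 and 0.43. In all 3 replicate numbers 33 of 80 subunits (41.25%) were above 0, where 15.01% of all tested genes were, and 2 (2.5%), Sdha and Atp5a1, were below, where 13.3% were.

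Single libraries carried much of this. Cd28 KO replicate 1 was the highest library for 35 subunits and Cd28 KO replicate 3 for 33, while WT replicate 3 was the lowest for 43 and Cd28 KO replicate 2 for 11. With replicates 1 and 2 alone the median over the subunits was 0.07, with 53 above 0, and without WT replicate 3 it was 0.11, with 60 above 0. After rescaling to equal sums it was 0.12, with 62 above 0. By complex, replicates 1 and 2 alone gave medians of 0.10 in complex I, 0.02 in complex II, 0.0014 in complex III, 0.03 in complex IV and 0.05 in complex V. With 1 library left out at a time, the medians ran from 0.13 to 0.28 in complex I, from 0.0087 to 0.09 in complex II, from 0.04 to 0.20 in complex III, from 0.08 to 0.26 in complex IV and from 0.12 to 0.26 in complex V. Each lowest value came without WT replicate 3, and each highest without Cd28 KO replicate 2, except in complex II, where it came without WT replicate 1. The subunits' share of the FPKM sum was 1.96%, 1.79% and 1.93% in Cd28 KO and 1.88%, 1.79% and 1.67% in WT, so that the groups overlapped. Across the 6 libraries, subunits of the same complex had a median Pearson r of 0.66 (886 pairs) and those of different complexes 0.59 (2274 pairs), on log2(FPKM + 1) values that share the libraries and their scaling. Most of the same-complex pairs lay within complex I, which holds 36 of the 80 subunits.

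**Figure D3:**
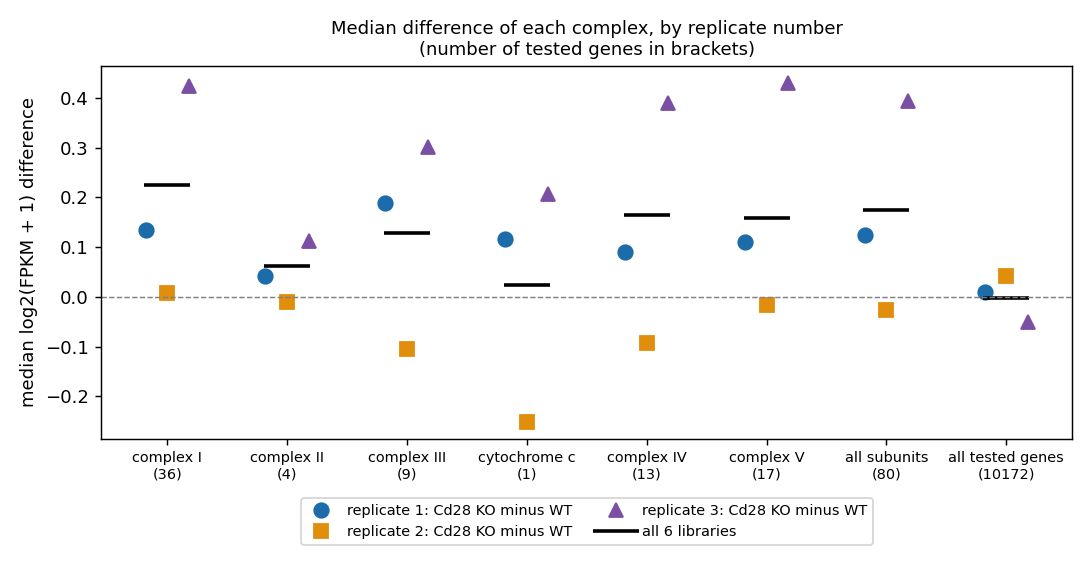
Median log2 difference over the tested subunits of each complex, over all subunits and over all tested genes, within each replicate number (coloured symbols) and over all 6 libraries (black bar). Replicate 3 lies highest in each complex with 4 or more subunits and replicate 2 lowest, at 0.39 and -0.03 over all subunits.

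Transcript length moved with the difference in subunits and in all other genes alike. Subunit transcripts are short, with a median of 760.5 nt against 2828 nt for all tested genes. Other tested genes of up to 1000 nt, 623 in number, had a median log2 difference of 0.15, with 83.63% above 0. The 51 subunits of that length had a median of 0.21, with 90.2% above 0. The share without overlap ran the other way in the subunits. Among these short genes, every Cd28 KO library exceeded every WT library for 10.91% of the others and 5.88% of the subunits. Over 1000 nt the medians were -0.01 for the 9410 others and 0.08 for the 29 subunits, with 3.27% and 17.24% (5 subunits) without overlap and higher. Ndufs3, Ndufa13, Ndufs4, Sdhd and Uqcrq were these 5. The sets were not matched in length. Over 1000 nt the median transcript was 2970 nt in the others and 1521 nt in the subunits. Up to 1000 nt it was 800 nt and 595 nt.

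By finer length classes, the median of the other genes was 0.20 up to 500 nt, 0.17 up to 750 nt, 0.14 up to 1000 nt, 0.09 up to 1500 nt, 0.03 up to 2500 nt and -0.04 beyond. The subunits stood at 0.24, 0.19, 0.16, 0.19, 0.04 and -0.0043 in the same classes, with 5 to 27 subunits in each. The class of 1000 to 1500 nt had the widest gap, 0.19 over 13 subunits, all above 0, against 0.09 over 1020 other genes. Spearman's rho of length with the difference was -0.40 over 80 subunits and -0.42 over 10033 other genes, as a description across genes of the same libraries. Within replicate 3 it was -0.46 and -0.67, within replicate 1 it was -0.29 and -0.20, and within replicate 2 it was -0.01 and 0.21.

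The complexes also differ in length. The median transcript was 760.5 nt in complex I, 2066 nt in complex II, 1363 nt in complex III, 618 nt in complex IV and 775.5 nt in complex V, and with all 6 libraries complex II had the lowest median difference of the 5. Within complex V, Atp5e at 421 nt and Atp5md at 362 nt had the largest log2 differences and Atp5a1 at 2471 nt the lowest. The part of transcript length in the subunits' difference was not tested.

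**Figure D4:**
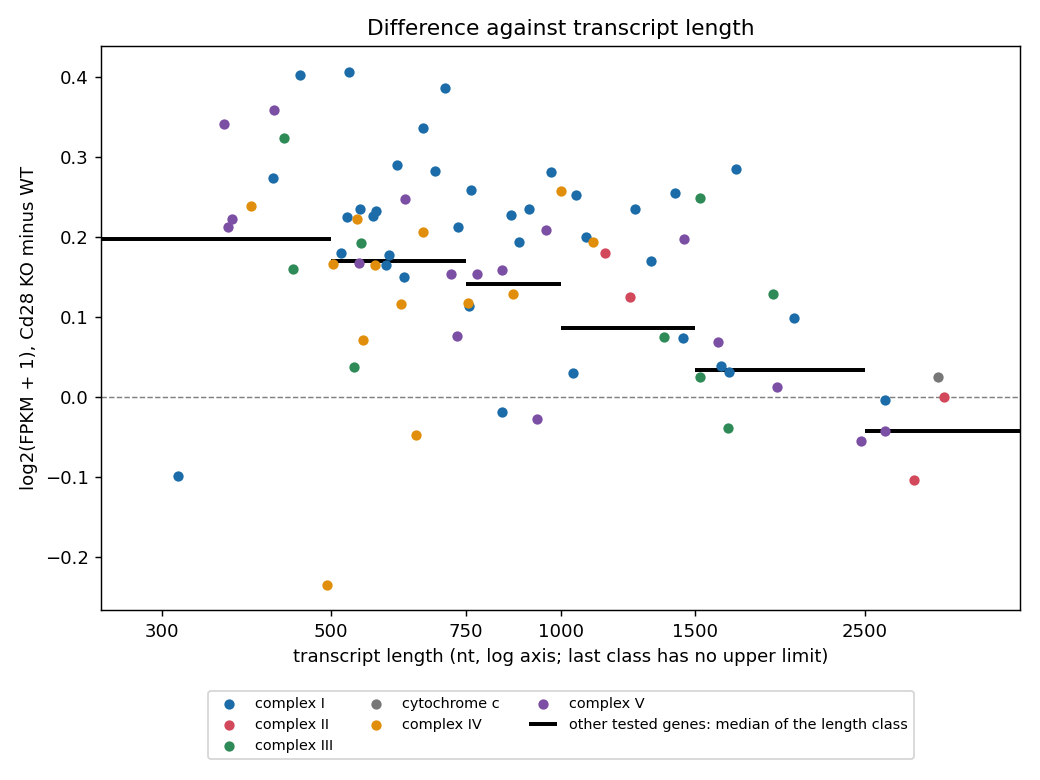
Log2 difference, Cd28 KO minus WT, of each tested subunit against transcript length (log axis), coloured by complex, with black bars for the median of the other tested genes in 6 length classes. The bars run from 0.20 for the shortest class to -0.04 for the longest, and the subunits lie around them.

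Members near Cd28 and on the X chromosome were described apart, since Cd28 lies on chromosome 1 and the replicate 3 libraries differed from the rest in Y-linked genes. Of the 6 subunits on chromosome 1, 4 were above 0, at a median of 0.07. Ndufb3, 2.16 Mb from Cd28, held 44.8, 50.4 and 38.5 FPKM in Cd28 KO and 43.7, 39.1 and 29.3 FPKM in WT, with replicate 3 the lowest of each group, and Ndufs1 lies 2.40 Mb away. The 40 tested genes within 5 Mb of Cd28 had a median of -0.0030. Cox5b held 296, 264 and 319 FPKM against 271, 277 and 253 FPKM, and Ndufa10 47.3, 44.4 and 53.3 FPKM against 44.8, 43.5 and 46.7 FPKM. The 3 X-linked subunits, Ndufb11, Ndufa1 and Cox7b, were all above 0, at a median of 0.26 where the 317 tested X-linked genes had 0.01. These sets were not alike in length, with a median transcript of 908 nt in the 3 subunits and 2808 nt in the 317 genes. Ndufa1, a small subunit of the membrane arm, held 87.2, 76.7 and 85.7 FPKM against 86.6, 60.2 and 61.7 FPKM, with WT replicate 1 among the Cd28 KO values.

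Promoters of the subunits were searched for the motifs of factors known to bind such genes. These were NRF1 (GCGCANGCG), ETS factors such as GABP (CCGGAAG) and YY1 (AAGATGG), on both strands, in the RefSeq windows of 250 bases before to 50 bases after a start (GRCm38.p6). Each motif was counted on its own, also where it overlapped another. A gene was counted where any of its windows held a match, while the share of all windows is per window. Of the 80 tested subunits, 67 had a window. NRF1 letters were in 21 of these (31.34%), against 16.63% of 8239 other tested genes and 6.25% of all 32851 windows. ETS letters were in 17 (25.37%), against 22.71% and 8.86%, and YY1 letters in 11 (16.42%), against 8.89% and 6.34%. The median log2 difference was 0.17 for the 21 subunits with NRF1 letters and 0.19 for the 46 without. A match is only a description of the letters in the window.

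The 250 bases before the start, 5′ to 3′, are shown for 4 subunits with differences from -0.10 to 0.41 and with 3, 1 or 0 matches. Sdha, at -0.10, and Ndufb4, at 0.28, hold 3 NRF1 matches each, Cycs, at 0.02, holds 1, and Ndufa7, at 0.41, holds none of the 3 motifs. Capitals mark the NRF1 letters on either strand. For Ndufa7 the first of 2 windows is shown.
Sdha (chr13:74350241-74350490, minus strand): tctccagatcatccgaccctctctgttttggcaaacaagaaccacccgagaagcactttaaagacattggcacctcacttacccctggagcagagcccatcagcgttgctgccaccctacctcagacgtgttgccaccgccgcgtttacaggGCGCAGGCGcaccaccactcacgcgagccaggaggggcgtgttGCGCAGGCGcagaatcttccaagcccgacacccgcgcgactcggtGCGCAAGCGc
Ndufb4 (chr16:37654369-37654618, minus strand): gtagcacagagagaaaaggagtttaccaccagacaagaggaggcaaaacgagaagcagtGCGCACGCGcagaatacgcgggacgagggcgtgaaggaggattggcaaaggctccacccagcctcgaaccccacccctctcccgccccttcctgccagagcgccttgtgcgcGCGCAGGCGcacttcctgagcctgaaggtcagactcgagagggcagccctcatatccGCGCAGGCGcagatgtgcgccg
Cycs (chr6:50566570-50566819, minus strand): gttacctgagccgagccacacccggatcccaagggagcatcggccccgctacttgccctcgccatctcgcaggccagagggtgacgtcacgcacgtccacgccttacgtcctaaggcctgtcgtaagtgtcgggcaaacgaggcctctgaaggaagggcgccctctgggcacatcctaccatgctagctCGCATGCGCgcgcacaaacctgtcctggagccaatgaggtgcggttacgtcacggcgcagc
Ndufa7 (chr17:33824322-33824571, plus strand): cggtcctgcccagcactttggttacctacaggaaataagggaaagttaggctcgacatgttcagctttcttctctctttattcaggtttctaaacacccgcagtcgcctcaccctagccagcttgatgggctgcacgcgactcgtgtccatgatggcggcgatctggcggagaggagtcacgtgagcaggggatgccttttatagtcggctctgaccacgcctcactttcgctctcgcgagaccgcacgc

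Other mitochondrial genes were set beside the subunits from lists by function, with 0 genes called by limma in any of them, without or with the block. Mitochondrial ribosomal proteins had a median log2 difference of 0.15, with 64 of 78 above 0, at a median transcript of 1253 nt. Without overlap, 10 of them (12.82%) were higher and 1 (1.28%) lower, where 3.84% and 2.87% of all tested genes were. Of these, Mrpl27 held 35.1, 33.1 and 39.4 FPKM in Cd28 KO and 25.7, 25.5 and 30.7 FPKM in WT, without overlap. Assembly factors of the complexes had a median of 0.07, with 32 of 46 tested above 0. Among them Ndufaf7, a methyltransferase of complex I assembly, held 9.32, 8.94 and 9.58 FPKM against 7.56, 7.06 and 7.28 FPKM, and Coa6, of complex IV assembly, 14.6, 12.95 and 11.9 FPKM against 11.2, 10.5 and 9.94 FPKM. Both lay without overlap and had a limma adjusted p of 0.9995.

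The remaining lists lay nearer to 0. Regulators of mitochondrial biogenesis had a median of 0.03 (10 of 17 above 0), with the coactivator Pprc1 at 9.27, 11.3 and 10.5 FPKM in Cd28 KO and 12.3, 10.3 and 13.8 FPKM in WT. The citric acid cycle and pyruvate dehydrogenase had a median of 0.02 (10 of 17 above 0). Fh1, fumarate hydratase, held 34.7, 28.7 and 25.3 FPKM against 26.4, 27.7 and 21.5 FPKM, with overlap between the groups. Electron and adenine nucleotide carriers had a median of 0.04 (11 of 17 above 0), with the ADP/ATP carrier Slc25a4 at 106, 97.7 and 99.4 FPKM against 86.5, 90.3 and 86.8 FPKM, without overlap. The 13 subunits encoded by mitochondrial DNA were not analysed here.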

How the data were processed

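Gene values in the 6 libraries are FPKM as the authors deposited them. The submitters' processing notes name Bowtie, RSEM and build GRCm38, with versions not given in the sources used here. Genes missing from a library's file were set to 0, and 0.01 FPKM was the lowest value listed. Read depth cannot be had from these values. Entrez identifiers were matched to RefSeq for GRCm38.p6 (14551 of 14574). Transcript length is the median over a gene's protein-coding GENCODE transcripts with a RefSeq mRNA record.

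Groups were taken from the sample titles. The 10172 genes averaging 1 FPKM or more were fitted on log2(FPKM + 1) with limma 3.58.1 in R 4.3.3 (empirical Bayes with trend, no block), and a gene was called where the two-sided p, adjusted by Benjamini-Hochberg over all of them, was below 0.05. The 1 FPKM added before the logarithm understates the difference of low genes. The fit was tested on simulated data. Python 3.11.15 (NumPy 2.4.6, pandas 2.3.3, SciPy 1.17.1) made the tables and Matplotlib 3.10.9 the figures.

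The deviations of same-numbered libraries from their group means correlated at 0.75, 0.51 and 0.78 across genes for replicates 1, 2 and 3, which met the limit of 0.1 set for taking the numbers as pairs, although no label states a pairing. Results come from the fit without the block, and the blocked values stand beside them where a count or call differs. In the fit without the block, the spread within each group includes the distance of replicate 3 from the others. That library alone of its group listed the Y-linked genes. The stand-apart position of both replicate 3 libraries also raises the correlations.

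Members named with values are the highest and lowest of each complex by level, the 2 largest and 2 smallest differences of each, those without overlap between groups, those on chromosomes 1 and X, isoform sets and up to 2 of each other list by smallest p; some genes under this rule are not reported here. Other members given as examples of a role were picked with their values in view. The members and lists were chosen with earlier results of these data known. Alternatives were the replicate block, a batch term for replicate 3, replicates 1 and 2 alone, other scalings, pseudocount, filters, library weights and leaving out each library.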

Additional observations from a re-analysis of the deposited data

How the results depend on the processing

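No subunit passed the limma test at an adjusted p below 0.05 under any of the alternatives except limma's library weights, where 9 of 80 did (0 otherwise). The replicate block kept every subunit's difference and changed no subunit's call; over all genes it called 14 higher and 4 lower, in place of 2 and 0. A batch term for replicate 3 gave 20 and 8, replicates 1 and 2 alone 40 and 31, library weights 604 and 324, and no filter gave 3 lower. The median log2 difference of complex II was 0.0022 after rescaling to equal sums and 0.12 without members on chromosomes 1 and X. With replicates 1 and 2 alone the medians were lower in every complex: 0.10 in complex I, 0.02 in complex II, 0.0014 in complex III, 0.027 in complex IV and 0.05 in complex V. The cause was not tested.

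With library weights the differences were -0.26 for Atp5g1, 0.46 for Atp5md, 0.28 for Atp5j, 0.34 for Ndufa7, 0.25 for Ndufb11, 0.36 for Ndufb2, 0.49 for Ndufb9, 0.27 for Sdhd and 0.42 for Uqcr10. Some differences changed sign, that of Cox6b2, the lowest of all, included. Cyc1 was at -0.0212 in replicates 1 and 2 alone, -0.0357 after rescaling to equal sums and -0.0099 after quantile normalization. Cycs was at -0.0677 in replicates 1 and 2 alone and -0.0353 after rescaling, and Sdhc at 0.0066 after median centring. With each library left out in turn, the ranges were -0.20 to 0.0621 for Atp5g1, -0.19 to 0.0839 for Cox5a, -0.57 to 0.0692 for Cox6b2, -0.0381 to 0.0939 for Cyc1, -0.0355 to 0.11 for Cycs, -0.13 to 0.16 for Ndufa12, -0.23 to 0.0461 for Ndufc1 and -0.12 to 0.0821 for Sdhc. These values cover Atp5j and the 27 subunits followed singly through the alternatives; among all 80, subunits below 0 numbered 11 with all libraries, 27 in replicates 1 and 2 alone, 18 after rescaling and 20 without WT replicate 3. FPKM gives no read counts, so the counting error behind each value is not known.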
